A study of Mus musculus with 27 samples.

Results

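The aminoacyl-tRNA synthetases are the enzymes that join each amino acid to its transfer RNA. All 34 synthetase genes examined here, 20 of cytosolic and 14 of mitochondrial enzymes, were taken by gene symbol from a count table of 57683 features. They are a selection of this enzyme family. The 27 libraries were made from polyadenylated RNA of C57BL/6J mouse heart, with no genotype or agent given beyond this inbred strain. One group holds 7 whole hearts of E13.5 embryos, whose sex is unknown in the labels. The adult groups are apexes of the ventricles, from mice without surgery aged 6 weeks (n = 6) or 16 weeks (n = 6), and from 12-week mice that had either a sham operation (n = 4) or 4 weeks of transverse aortic constriction (TAC, n = 4). TAC is a surgical narrowing of the aorta that makes the left ventricle pump against pressure. The adult libraries are labelled male, except TAC replicate F1, which is labelled female. The labels number the samples within a group but do not say whether hearts were pooled, so errors are the spread between these samples.

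Most amino acids have separate enzymes for the cytosol and for the mitochondrion, both encoded in the nucleus, and the mitochondrial ones serve the translation of the respiratory chain subunits that mitochondrial DNA encodes. Several cytosolic enzymes sit together in the multi-synthetase complex, held by non-enzymatic scaffold proteins, and the others work outside it. Many cytosolic synthetase genes are known targets of the amino acid response, in which the transcription factor ATF4 raises genes of amino acid supply when translation is stressed.

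The cytosolic genes were Aars, Cars, Dars, Eprs, Farsa, Farsb, Gars, Hars, Iars, Kars, Lars, Mars, Nars, Qars, Rars, Sars, Tars, Vars, Wars and Yars. The first letter of each is the amino acid in its single-letter code. Eprs makes 1 protein that charges glutamate and proline, Farsa and Farsb encode the subunits of the cytosolic phenylalanine enzyme, and Gars and Kars are known to serve both compartments. The mitochondrial genes were Aars2, Cars2, Ears2, Fars2, Iars2, Lars2, Mars2, Nars2, Pars2, Rars2, Sars2, Vars2, Wars2 and Yars2. On the mouse build mm9, the genes the results turn on most lie as follows. Vars is on the + strand of chromosome 17 from 35138078 to 35153267, Yars on the + strand of chromosome 4 from 128867004 to 128896851, and Gars on the + strand of chromosome 6 from 54988019 to 55029484. Fars2 is on the + strand of chromosome 13 from 36209280 to 36629461, and Iars2 on the - strand of chromosome 1 from 187108605 to 187153275.

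Total counts were 2092270 to 2682955 per library in the unoperated adults and 7543375 to 12646039 in the other groups. The unoperated adult libraries also carried another base quality encoding, so stage cannot be told apart from encoding, depth, or whole heart against apex. In 8 adult libraries, 2 in each adult group, Y-linked counts went against the labelled sex, the female-labelled TAC library included. Counts without these sex-discordant libraries stand beside each comparison. Levels below are CPM, the counts relative to the scaled library size, or RPKM, which also divides by exonic length that no other feature covers. In bulk tissue, fewer cells of a type and less RNA per cell cannot be told apart. All statements are about RNA, since enzyme amounts were not measured.

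Stretches upstream of the start are shown for 3 cytosolic genes, because these hold, before the start, the core of the element that ATF4 and C/EBP factors are known to bind. The core was searched as TGATGNAA on both strands in windows of 250 bases before to 50 bases after each start (RefSeq, build GRCm38.p6, not the mm9 build of the counts). Capitals mark the match, which lies on the opposite strand in each. Aars is chr8:111033700-111033767, Gars is chr6:55037941-55038000 and Tars is chr15:11399659-11399703, written 5′ to 3′ along the gene.
Aars: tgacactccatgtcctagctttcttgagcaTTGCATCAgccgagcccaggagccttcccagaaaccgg
Gars: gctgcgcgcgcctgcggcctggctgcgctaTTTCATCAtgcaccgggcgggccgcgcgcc
Tars: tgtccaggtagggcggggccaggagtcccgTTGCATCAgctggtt
Windows were found for 26 of the 34 members, the others being Cars, Hars, Lars, Nars, Rars, Vars, Wars and Pars2. The core stood in 5 of the 13 cytosolic windows (38.5%), in 0 of the 14 mitochondrial windows, and in 3.97% of the 32851 windows of all genes. In Iars and Yars the match was in the bases after the start, and it is not printed. A longer form, TGATGNAAT, which contains the core, stood in the windows of Aars, Gars and Iars and in 0.965% of all windows. A match says that these letters are present, not that a factor was bound.

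Per length, the most abundant synthetase RNA in every adult group was Kars, the lysine enzyme of both compartments, at 69.5 ± 4.81 RPKM at 6 weeks (SD, n = 6), 72.3 ± 4.73 at 16 weeks (n = 6), 70.9 ± 3.45 in sham (n = 4) and 79.6 ± 7.47 in TAC hearts (n = 4). In embryonic hearts Gars, the glycine enzyme, came first at 78.3 ± 8.54 RPKM (n = 7), and Kars followed at 55.2 ± 1.79. The mitochondrial phenylalanine enzyme gene Fars2 stood in adult hearts beside the most abundant cytosolic genes. It had 38.1 ± 2.17 RPKM in sham hearts, against 36.4 ± 2.98 for Eprs and 35.1 ± 0.353 for Gars. Its values overlapped those of Eprs but not those of Gars, its lowest library at 35.6 RPKM lying just above the highest of Gars at 35.5. At E13.5, Fars2 had 13.4 ± 0.788 RPKM.

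**Figure D1:**
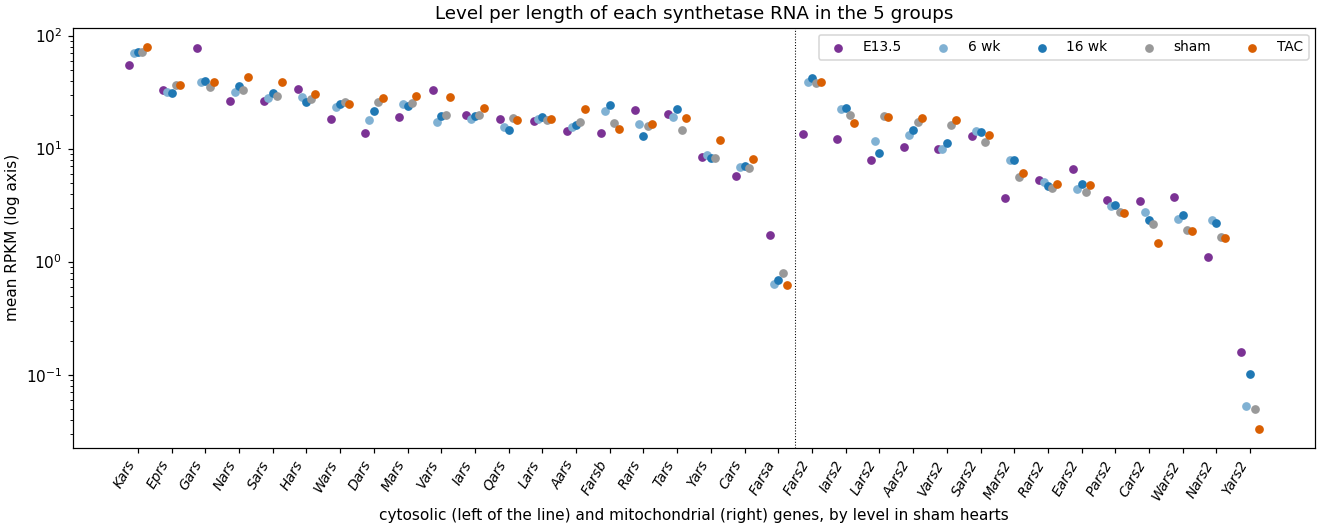
Mean RPKM of each synthetase gene (log axis) in the 5 groups, 1 point per group, cytosolic genes to the left of the dotted line and mitochondrial genes to the right. Kars led in adult groups at 69.5 to 79.6 RPKM, Gars led at E13.5 at 78.3, and the points of Farsa, Cars2 and Yars2 rest on few counts.

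For some members of low level, other annotated features cover much of the exonic sequence, and reads in shared sequence may not have been assigned. Only 17.9% of the exonic bases of Cars2, 50.7% of those of Yars2 and 57.7% of those of Farsa are their own. Cars2 and Yars2 did not pass the count filter in any comparison, and Farsa did not in the comparison of ages. The level of Farsa, 0.799 ± 0.237 RPKM in sham hearts, is therefore no measure of its amount relative to Farsb, at 17.0 ± 1.0004. Mars shares 66 exonic bases with Ddit3, and Iars2 has 68.2% of its exonic bases to itself. Nars2 and Wars2 were also low, at 1.65 ± 0.113 and 1.92 ± 0.0688 RPKM in sham hearts, with 93.2% and 100% of their exonic bases to themselves.

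Under the main scaling, the summed RNA of the 20 cytosolic genes differed little between embryonic and adult hearts without TAC. The sum of the 14 mitochondrial genes was lower in embryos. The cytosolic sum was 480 ± 18.99 RPKM at E13.5 (SD, n = 7), 454 ± 27.8 at 6 weeks (n = 6), 470 ± 18.95 at 16 weeks (n = 6) and 466.2 ± 13.01 in sham hearts (n = 4). It was 530 ± 10.8 in TAC hearts (n = 4). With RLE, another scaling, the cytosolic sum was 501 ± 16.5 at E13.5, 451 ± 24.1 at 6 weeks and 467 ± 13.8 at 16 weeks. Sham hearts then stood at 459 ± 13.9 and TAC hearts at 509 ± 9.12 RPKM. Gars and Kars, which serve both compartments, are counted as cytosolic here. Gars added a mean of 78.3 RPKM at E13.5, 38.5 at 6 weeks and 39.3 at 16 weeks, and Kars 55.2, 69.5 and 72.3. Sums without them were not computed. The mitochondrial sum was 94.0 ± 6.80 RPKM at E13.5, 138 ± 8.55 at 6 weeks, 142 ± 10.9 at 16 weeks, 145 ± 2.67 in sham and 148 ± 5.39 in TAC hearts. The embryonic sums, 85.5 to 104 RPKM, lay below all adult ones, of which the lowest was 125. Fars2 (mean 13.4 RPKM at E13.5, 38.5 at 6 weeks and 42.3 at 16 weeks) and Iars2 (12.1, 22.4 and 22.7) weighed most in this difference. Among genes that went the other way were Ears2 (6.62, 4.36 and 4.89) and Wars2 (3.71, 2.38 and 2.56). The lower mitochondrial sum is therefore no statement about each gene. The TAC cytosolic sums, 518 to 544 RPKM, lay above the sham ones, 458 to 486, while the mitochondrial sums overlapped. The ratio of the sums was 5.12 ± 0.210 at E13.5, 3.29 ± 0.169 at 6 weeks, 3.33 ± 0.205 at 16 weeks, 3.22 ± 0.150 in sham and 3.58 ± 0.124 in TAC hearts. Sham replicate 3, at 3.44, stood above TAC replicate F1, at 3.42, so the ratios of sham and TAC overlapped. These sums are descriptions and were not tested.

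**Figure D2:**
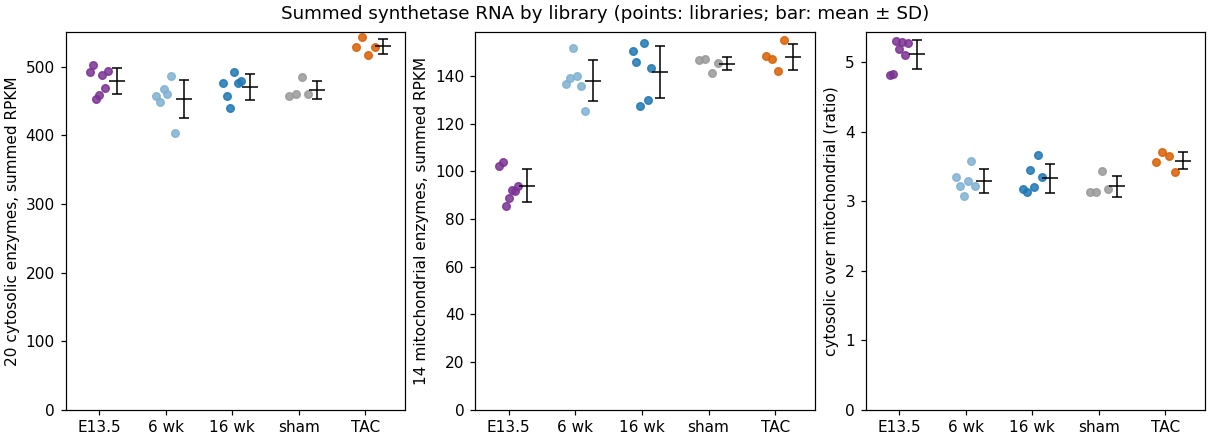
Summed RPKM of the cytosolic genes, of the mitochondrial genes, and their ratio, each on a linear axis from 0. Points are libraries and bars are means ± SD. The mitochondrial sum of all 7 embryonic hearts (85.5 to 104 RPKM) lies below that of every adult heart, and the cytosolic sum of the 4 TAC hearts (518 to 544) lies above that of the 4 sham hearts.

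Setting E13.5 against the unoperated adults asks which RNAs distinguish the heart before birth. Among the cytosolic genes, 6 were higher at E13.5, 8 were lower and 6 did not pass (edgeR's quasi-likelihood test, Benjamini-Hochberg adjusted p under 0.05 over all features). Over all 12766 features tested, 44.1% were called higher and 39.7% lower, so 14 called of 20 is no more than the background. The median log2 fold change was -0.06 for the cytosolic genes and 0.07 for all features. Of the 12 mitochondrial genes tested, 2 were higher, 6 were lower and 4 did not pass, with a median of -0.26. With the 4 sex-discordant adult libraries left out, the cytosolic counts were 6 and 9 and the mitochondrial ones 2 and 6.

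Fars2 had the largest decrease of the members tested. Its lowest, median and highest levels were 26.1, 29.2 and 29.9 CPM at E13.5, 74.8, 79.9 and 93.8 at 6 weeks, and 76.5, 91.3 and 99.5 at 16 weeks. Every embryonic heart lay below every adult heart, and the log2 fold change was -1.59 ± 0.06 (SE; edgeR adjusted p = 7.43e-20).

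Iars2, the mitochondrial isoleucine enzyme gene, stood at 61.8, 75.9 and 78.2 CPM at E13.5, 118, 140 and 149 at 6 weeks, and 113, 137 and 156 at 16 weeks. Its embryonic values also lay below all adult ones (-0.89 ± 0.07, edgeR adjusted p = 2.68e-13). Mars2, which charges the methionine that starts and extends mitochondrial proteins, stood at 4.85, 7.00 and 8.33 CPM at E13.5 against 11.6, 15.6 and 17.8 at 6 weeks and 9.44, 17.1 and 17.9 at 16 weeks. The groups did not overlap (-1.12 ± 0.13, edgeR adjusted p = 3.39e-09).

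Nars2, the mitochondrial asparagine enzyme gene, was low throughout, at 3.59, 4.15 and 5.15 CPM in embryos, 6.46, 9.57 and 12.7 at 6 weeks, and 6.97, 7.75 and 12.5 at 16 weeks. It separated the stages as well (-1.05 ± 0.15, edgeR adjusted p = 1.37e-07). These 4 were the mitochondrial genes whose stages did not overlap. Over all features tested, 54.5% did not overlap.

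The other mitochondrial genes overlapped between stages. Aars2 (-0.41 ± 0.08) and Lars2 (-0.39 ± 0.17) were lower, and Wars2 (0.59 ± 0.10) and Ears2 (0.52 ± 0.09), the tryptophan and glutamate enzyme genes, were higher. Lars2 was called at an adjusted p of 0.0437 (edgeR) and lost its call in 12 of 19 fits from which a single library was dropped. It was uneven among unoperated adults, from 16.2 to 47.6 CPM at 6 weeks and from 19.4 to 40.9 at 16 weeks, whereas sham hearts stood at 60.5 to 64.6. Pars2, Rars2, Sars2 and Vars2 had log2 fold changes from -0.12 to 0.16 and did not pass.

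**Figure D3:**
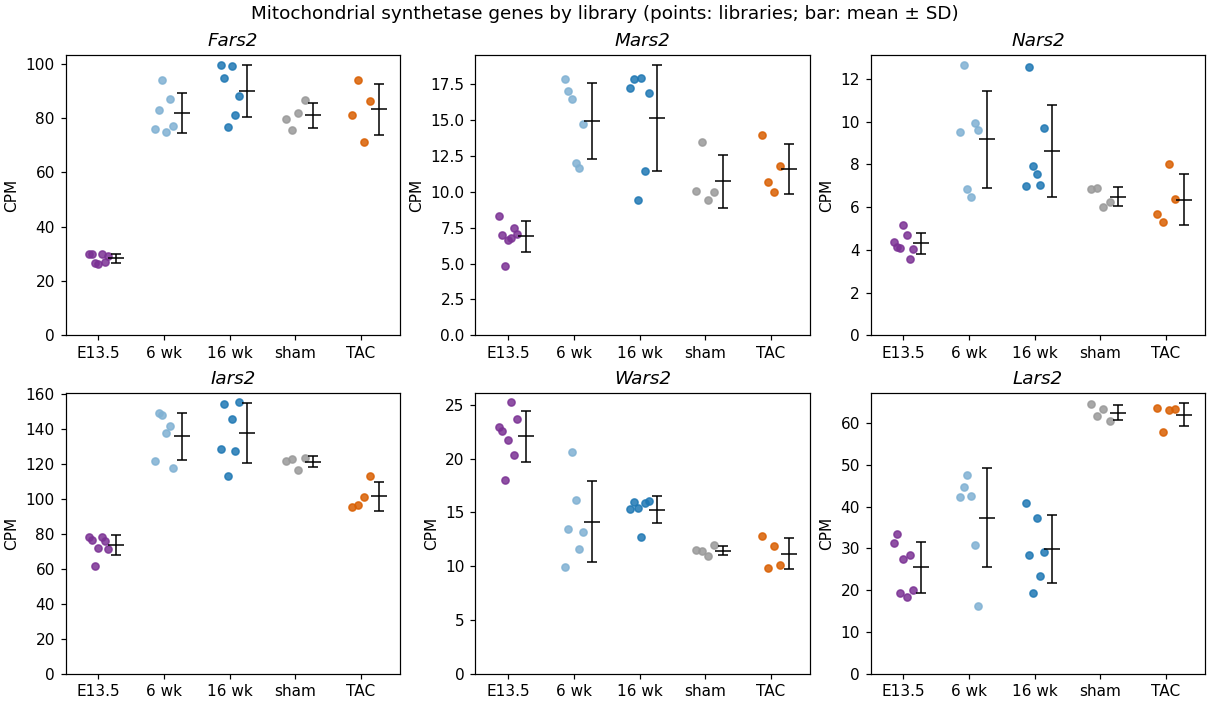
CPM of 6 mitochondrial synthetase genes in each library, by group, each on a linear axis from 0, with bars for the mean ± SD. For Fars2, Mars2, Nars2 and Iars2 the 7 embryonic hearts lie below all 12 unoperated adult hearts, Wars2 is higher in embryos with overlap, and Lars2 spreads from 16.2 to 47.6 CPM at 6 weeks.

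Gars had the largest increase among cytosolic genes at high counts. Its levels were 150, 195 and 203 CPM at E13.5 (lowest, median, highest), 80.1, 92.5 and 95.1 at 6 weeks, and 82.6, 91.5 and 104 at 16 weeks. All embryonic hearts lay above all adult hearts (1.01 ± 0.06, edgeR adjusted p = 3.02e-15). Farsa had a larger fold on few counts, at 3.94, 4.38 and 5.21 CPM against 1.37, 1.59 and 1.98 at 6 weeks and 1.27, 1.81 and 2.48 at 16 weeks (1.39 ± 0.17, adjusted p = 1.68e-08), also with no overlap.

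Vars, the valine enzyme gene, stood at 111, 131 and 161 CPM in embryos, 52.1, 71.4 and 79.1 at 6 weeks, and 62.3, 77.3 and 93.4 at 16 weeks. It did not overlap between stages (0.87 ± 0.08, edgeR adjusted p = 1.85e-11). Rars, the arginine enzyme gene of the multi-synthetase complex, stood at 47.4, 51.0 and 54.6 CPM against 30.9, 38.8 and 46.1 and then 25.8, 30.8 and 33.1, again without overlap (0.57 ± 0.07, 2.65e-08). Hars (0.32 ± 0.07) and Qars (0.28 ± 0.06) were also higher.

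Among the lower cytosolic genes, Farsb, which encodes the partner subunit of Farsa, stood at 22.05, 26.6 and 32.2 CPM in embryos, 35.3, 39.5 and 51.9 at 6 weeks, and 40.6, 46.7 and 51.2 at 16 weeks. The groups did not overlap (-0.73 ± 0.08, edgeR adjusted p = 2.39e-09), so the counted parts of these subunit genes moved in opposite directions. Kars stood at 112, 115 and 124 CPM against 133, 146 and 159 and then 136, 154 and 164, without overlap (-0.36 ± 0.05, 2.57e-07). Wars, the tryptophan enzyme gene, stood at 48.5, 52.3 and 61.7 CPM against 62.8, 67.4 and 75.7 and then 62.1, 70.9 and 97.6, also without overlap (-0.40 ± 0.07, 5.78e-06). Dars (-0.53 ± 0.09), Mars (-0.36 ± 0.07), Nars (-0.35 ± 0.07), Cars (-0.27 ± 0.09) and Sars (-0.14 ± 0.06, edgeR adjusted p = 0.0263) were lower with overlap. The call of Cars was lost with upper-quartile scaling (-0.15, adjusted p = 0.136) and with no filter (-0.090, 0.433). The call of Sars was lost in 5 of the 19 fits without a single library and in 5 of 14 other alternatives, with adjusted p up to 0.685, and with no filter it turned to 0.034 (0.715).

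Eprs stood at 154, 159 and 169 CPM in embryos, 140, 158 and 159 at 6 weeks and 136, 143 and 172 at 16 weeks, which overlapped (0.07 ± 0.05, edgeR adjusted p = 0.224). Aars, Iars, Lars, Tars and Yars had log2 fold changes from -0.13 to 0.08 and did not pass either. By place, 2 of the 8 enzymes of the multi-synthetase complex were higher and 3 lower, against 4 and 5 of the 12 outside it. With 44.1% of all features higher and 39.7% lower, neither place stood out from the background.

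Sham hearts shared the encoding and depth of the embryonic libraries. Against sham alone the log2 fold change was -1.60 for Fars2, -0.81 for Iars2, 1.07 for Gars and 0.64 for Vars. It was smaller for Mars2 (-0.73), Nars2 (-0.69), Rars (0.37) and Farsb (-0.39), and each of these 8 kept its call. Qars turned from 0.28 to -0.11 and Eprs from 0.07 to -0.22, Tars stood at 0.38, and Vars2 stood at -0.81. The sham levels of Vars2, 58.4 to 65.4 CPM, lay above those of all unoperated adults, 28.5 to 46.7. Among called members that overlapped with the unoperated adults, the embryonic levels of Dars, Mars, Sars, Aars2 and Lars2 lay below all sham hearts. Those of Hars, Ears2 and Wars2 lay above all sham hearts, whereas Cars and Nars overlapped with sham. The highest embryonic levels of Dars, Aars2 and Lars2 were 29.5, 44.8 and 33.3 CPM. Their lowest sham levels were 46.8, 55.4 and 60.5 CPM. The gap was narrow for Sars (highest embryonic 99.4, lowest sham 101 CPM) and Hars (lowest embryonic 49.8, highest sham 49.4 CPM). Why sham and unoperated adults differed was not tested.

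Within enzyme pairs, the log2 ratio of mitochondrial to cytosolic RPKM was lower at E13.5 without overlap for Iars2 to Iars (by a mean difference of -0.98), Vars2 to Vars (-0.96), Mars2 to Mars (-0.74) and Fars2 to Farsa (-2.88, on the partly counted Farsa). It was higher without overlap for Wars2 to Wars, by 0.98, and overlapped in the other 9 pairs.

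Partners of these enzymes are given with their folds, since 44.1% of all features were higher and 39.7% lower in this comparison and a count of calls says little about a list. Of the 3 scaffold genes of the multi-synthetase complex, Eef1e1 (0.83 ± 0.19) and Aimp2 (0.48 ± 0.10) were higher and Aimp1 was lower (-0.60 ± 0.09), and against sham alone Eef1e1 stood at -0.18 and Aimp2 at 0.04. Of 17 mitochondrial translation factor and tRNA partner genes, 3 were higher and 12 lower (median -0.72). The largest decreases were in Gfm1 (-1.48 ± 0.07) and Gfm2 (-1.30 ± 0.07), the mitochondrial elongation factor G genes, Mrrf (-1.20 ± 0.07), the ribosome recycling factor gene, and Pet112l (-1.19 ± 0.08), a subunit gene of the amidotransferase that makes glutaminyl-tRNA.

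Of 7 cytosolic elongation factor genes 4 were higher and 2 lower, beside 44.1% of all features higher and 39.7% lower. Eef1a1, which carries charged tRNA to the ribosome in most cells, averaged 1449 CPM at E13.5 against 146 in the unoperated adults (3.32 ± 0.06). Its muscle and nerve counterpart Eef1a2 averaged 201 against 2633 CPM (-3.71 ± 0.06). Eef1g (0.92 ± 0.08) and Eef1b2 (0.50 ± 0.06), subunits of the exchange factor, were also higher. Of 23 amino acid response genes 15 were higher and 5 lower. Phgdh (4.21 ± 0.22) and Psat1 (3.37 ± 0.14) of serine synthesis and the amino acid transporter gene Slc7a5 (2.78 ± 0.09) were higher, Chac1, a glutathione-degrading enzyme gene, was lower (-3.24 ± 0.30), and Atf4 itself stood at -0.03 ± 0.06 (edgeR adjusted p = 0.669).

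Of 8 interferon response genes, a list taken because Wars is known to be induced by interferon, 6 were lower, with Gbp2 at -2.57 ± 0.17, Gbp3 at -2.09 ± 0.20, Irf1 at -1.74 ± 0.10 and Irf7 at -1.60 ± 0.18. All 11 cell cycle genes tested were higher, among them Top2a, at a mean of 226 CPM in embryos and 1.37 in the unoperated adults (7.63 ± 0.19). Bub1 averaged 13.6 against 0.0422 CPM, Aurkb 49.1 against 0.318 CPM, and Ccnb1 10.4 CPM in embryos with no count in the 12 adults. Summed cardiomyocyte markers were 29074 to 39493 CPM in embryos and 133189 to 160533 in adults (1 of 10 higher, 9 lower). Summed erythroid markers were 12908 to 47469 against 118 to 511 CPM (9 of 9 tested higher, with Hbb-y, Hbb-bh1 and Hba-x at 0 in the unoperated adults), and summed macrophage markers 130 to 188 against 297 to 454 CPM (9 of 9 tested lower). Summed epicardial markers were 232 to 302 against 8.72 to 18.9 CPM (6 of 6 higher). Summed atrial markers were 2538 to 3351 against 139 to 1439 CPM (4 of 5 tested higher, 0 lower). In this comparison 44.1% of all features were higher and 39.7% lower. The part of cell composition in the synthetase differences was not tested.

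Between 6 and 16 weeks no member was called. By edgeR, 0 of 19 cytosolic and 0 of 12 mitochondrial genes passed, against 1.32% of all 10394 features called higher and 1.19% called lower. At an unadjusted p under 0.05 edgeR, DESeq2 and limma-voom each had 1 member, Rars, and neither of the other tools called any member. Rars stood at 30.9, 38.8 and 46.1 CPM at 6 weeks and 25.8, 30.8 and 33.1 at 16 weeks, which overlapped (-0.38 ± 0.12, edgeR adjusted p = 0.0998). The other cytosolic genes ran from -0.18 (Hars) to 0.24 (Dars) in log2 fold change, with Gars at 0.02 ± 0.08, Kars at 0.04 ± 0.07, Eprs at -0.05 ± 0.08 and Farsb at 0.15 ± 0.11. The mitochondrial genes ran from -0.35 (Lars2) to 0.16 (Vars2). No member's age groups parted without overlap, against 2.05% of all features. With the 4 sex-discordant libraries left out, 0 members were called in either direction. Of 1.5-fold changes simulated for this comparison, a mean of 54.3% were called with feature-wise dispersions and 60.9% with trended ones. Changes of that size may therefore be missed.

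The comparison of TAC with sham hearts asks how pressure overload changes the adult heart against operated controls of the same age. Cytosolic synthetase genes were called mostly higher: 7 of 20 were higher, 1 was lower and 12 did not pass, against 19.6% of all 14555 features called higher and 18.4% lower (edgeR, adjusted p under 0.05). Of the 12 mitochondrial genes tested, 0 were higher, 1 was lower and 11 did not pass. At an unadjusted p under 0.05, 1 mitochondrial gene, Iars2, had a difference in edgeR, DESeq2 and limma-voom alike. The median log2 fold change was 0.11 for the cytosolic genes, 0.03 for the mitochondrial ones and 0.00 for all features. With the 4 sex-discordant libraries left out, 10 cytosolic genes were higher and 0 lower, and 1 mitochondrial gene was lower.

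Yars, the tyrosine enzyme gene, stood at 46.0, 51.9, 53.2 and 46.2 CPM in sham replicates 1 to 4. In TAC replicates 1, 2, 3 and F1 it stood at 71.5, 77.3, 69.5 and 65.5 CPM. Every TAC heart lay above every sham heart, and the log2 fold change was 0.49 ± 0.08 (SE; edgeR adjusted p = 2.14e-04). Vars stood at 83.0, 77.96, 81.4 and 77.3 CPM in sham and 113, 106, 119 and 119 CPM in TAC hearts. Its groups did not overlap (0.47 ± 0.07, edgeR adjusted p = 7.10e-05).

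Sars, the serine enzyme gene, stood at 110, 101, 114 and 106 CPM in sham and 156, 150, 129 and 131 CPM in TAC hearts. The lowest TAC value exceeded the highest sham value (0.35 ± 0.07, edgeR adjusted p = 0.00173). Aars, the alanine enzyme gene, stood at 117, 133, 143 and 117 CPM in sham and 166, 182, 153 and 166 CPM in TAC hearts. It did not overlap either (0.35 ± 0.08, edgeR adjusted p = 0.00293).

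Nars (0.33 ± 0.07, edgeR adjusted p = 0.00195) and Tars (0.30 ± 0.07, 0.0039), the asparagine and threonine enzyme genes, were higher without overlap. Mars, the methionine enzyme gene, was higher by less (0.19 ± 0.07, 0.0396). Its groups did not overlap, but its call was lost in 4 of 8 fits from which a single library was dropped, with the replicate block (0.16, adjusted p = 0.134) and with DESeq2 (0.18, 0.0568). Yars, Vars, Sars, Aars, Nars and Tars kept their calls in all of those 8 fits and in all 10 other alternatives.

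**Figure D4:**
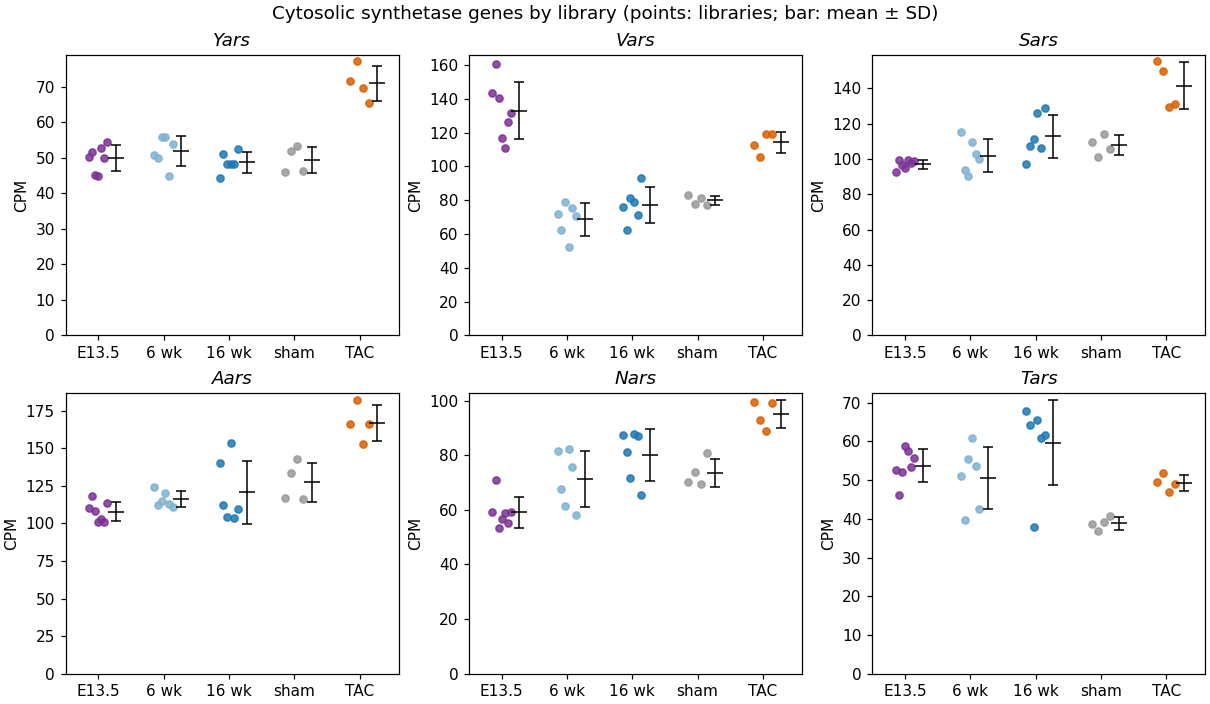
CPM of the 6 cytosolic synthetase genes called higher in TAC hearts with the largest folds, in each library by group, each on a linear axis from 0, with bars for the mean ± SD. In every panel the 4 TAC hearts lie above the 4 sham hearts, and for Vars the embryonic hearts (111 to 161 CPM) are also above the adult groups without TAC.

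Farsb was the cytosolic gene called lower, at 31.4, 33.2, 29.9 and 34.2 CPM in sham and 26.5, 29.8, 27.7 and 28.4 CPM in TAC hearts. The highest TAC heart stood just under the lowest sham heart (-0.24 ± 0.08, edgeR adjusted p = 0.0335). This call was lost in 6 of those 8 fits and with the replicate block (-0.20, adjusted p = 0.141). Farsa stood at 1.99, 1.26, 2.47 and 2.65 CPM in sham and 1.45, 1.71, 2.47 and 0.927 CPM in TAC hearts, which overlapped (-0.38 ± 0.32, 0.372).

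Gars stood at 82.8, 83.6, 82.3 and 81.6 CPM in sham and 93.8, 91.1, 87.1 and 93.8 CPM in TAC hearts. Its groups did not overlap, yet it did not pass (0.10 ± 0.06, edgeR adjusted p = 0.201). Kars stood at 148, 142, 160 and 148 against 173, 187, 158 and 152 CPM (0.13 ± 0.07, 0.196), with overlap. Eprs stood at 172, 159, 194 and 179 against 173, 171, 175 and 187 CPM (-0.04 ± 0.07, 0.709), with overlap. In all, 9 of the 20 cytosolic genes and 2 of the 12 mitochondrial genes tested did not overlap, against 35.7% of all features. Cars, Dars, Hars, Iars, Lars, Qars, Rars and Wars had log2 fold changes from -0.10 to 0.24 and did not pass.

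The called genes lay mostly outside the multi-synthetase complex: 6 of the 12 genes outside it were higher and 1 lower (median log2 fold change 0.27), against 1 higher and 0 lower of the 8 genes of the complex (median 0.05). Over all features 19.6% were higher and 18.4% lower, so 1 higher of 8 is near the background. The 1 gene of the complex was Mars, whose call was lost in 4 of 8 fits without a single library. This split by place was not tested as a difference. Of the scaffold genes, Eef1e1 (0.67 ± 0.19) and Aimp2 (0.32 ± 0.11, edgeR adjusted p = 0.0326) were higher. The call of Aimp2 was lost in 4 of 8 fits without a single library and in 3 of 10 other alternatives (adjusted p up to 0.0779).

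Iars2 was the mitochondrial gene called lower, at 122, 123, 116 and 123 CPM in sham and 95.03, 96.2, 101 and 113 CPM in TAC hearts. All TAC hearts lay below all sham hearts (-0.30 ± 0.07, edgeR adjusted p = 0.00328). The other mitochondrial genes had log2 fold changes from -0.08 to 0.16. Fars2, so different between the stages, stood at -0.01 ± 0.08. Sars2 did not overlap between groups (18.3 to 23.3 against 23.5 to 25.7 CPM) and did not pass (0.16 ± 0.10, 0.227). Within pairs, the log2 ratio of mitochondrial to cytosolic RPKM was lower in TAC hearts without overlap for Iars2 to Iars (by -0.46), Vars2 to Vars (-0.39) and the sparsely counted Cars2 to Cars (-0.82), and the other 11 pairs overlapped.

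**Figure D5:**
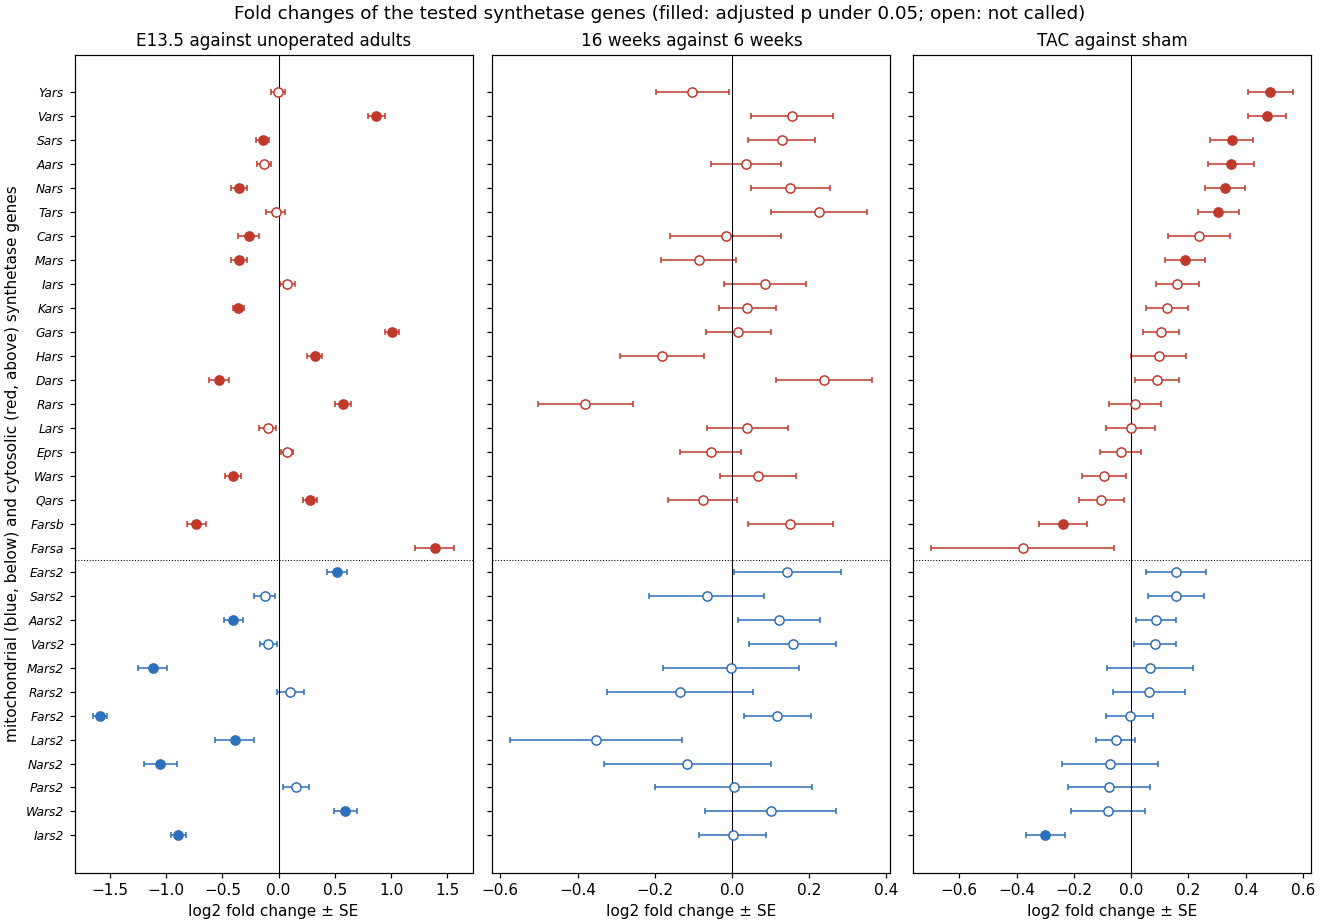
Log2 fold change ± SE of each tested synthetase gene in the 3 comparisons, each panel with its own horizontal scale, cytosolic genes in red and mitochondrial genes in blue. Filled points passed an adjusted p under 0.05: 22 in the comparison of stages, 0 between the ages and 9 under TAC, of which 7 are cytosolic genes to the right of 0.

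The amino acid response list, which holds genes that ATF4 is known to drive, had 10 of 24 tested members higher in TAC hearts and 2 lower (median 0.42). Over all features tested, 19.6% were higher and 18.4% lower. Gdf15, a stress-induced secreted factor gene, stood at 0.612 to 1.66 CPM in sham and 6.22 to 16.7 CPM in TAC hearts (3.26 ± 0.42). Atf3 (1.38 ± 0.26) and Nupr1 (1.36 ± 0.14), stress-induced transcription regulator genes, were higher, and Cth, an enzyme gene of cysteine synthesis, was lower at means of 1.23 against 2.64 CPM (-1.12 ± 0.34). The call of Cth was lost in 2 of 8 fits without a single library and in 2 of 10 other alternatives (adjusted p up to 0.0818). The other gene called lower was Slc7a1, a transporter gene of cationic amino acids, at -0.67 ± 0.09 without overlap. Atf4 stood at 62.3 to 75.3 CPM in sham and 83.6 to 100 CPM in TAC hearts (0.37 ± 0.08, edgeR adjusted p = 0.00142). Asns, the asparagine synthetase gene of that response, did not pass (0.61 ± 0.28, 0.0923), nor did Trib3 (0.17 ± 0.18, 0.478). Among the 5 cytosolic genes called higher that had a promoter window, 3 held the core of the ATF4 element (Aars, Tars and Yars), against 2 of the 8 others (Gars and Iars). Of these, only Aars, Tars and Gars hold it before the start, as shown above. The called Nars and Vars had no window. Whether the core goes with the calls was not tested.

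Cytosolic elongation factors were higher in 5 of 7 cases, with Eef1g at 0.41 ± 0.08, Eef1d at 0.40 ± 0.08, Eef1a2 at 0.32 ± 0.07 and Eef2 at 0.30 ± 0.07. Of the 17 mitochondrial translation genes, against 19.6% of all features higher and 18.4% lower, Tsfm, the exchange factor of mitochondrial elongation, was higher (0.46 ± 0.07) and 3 were lower, namely Mto1 (-0.41 ± 0.10), Qrsl1 (-0.39 ± 0.15) and Pet112l (-0.27 ± 0.08), with Qrsl1 losing its call in 7 of those 8 fits. Pet112l lost its call in 1 of those fits and in 3 of 10 other alternatives (adjusted p up to 0.178). Of 13 interferon response genes 5 were higher, among them Isg15 (0.93 ± 0.30), Irf7 (0.85 ± 0.20), Oas1a (0.84 ± 0.29) and Usp18 (0.52 ± 0.17). Isg15, Oas1a and Usp18 lost their calls in 6, 6 and 4 of those 8 fits. The interferon-inducible Wars stood at -0.09 ± 0.08. Of 9 cell cycle genes 2 were higher, Cdc20 (0.79 ± 0.24) and Mcm2 (0.76 ± 0.14), a share near the 19.6% of all features. The call of Cdc20 was lost without TAC replicate 3 (0.62, edgeR adjusted p = 0.0594) and without the sex-discordant libraries (0.48, 0.23).

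Markers of other cell types were also called under TAC, where 19.6% of all features were higher and 18.4% lower. Of 10 fibroblast markers 7 were higher, with summed levels of 1267 to 1408 CPM in sham and 2623 to 5158 in TAC hearts, and of 10 macrophage markers 6 were higher, with 453 to 506 against 617 to 865 CPM. Summed cardiomyocyte markers overlapped, at 175136 to 201211 in sham and 155402 to 190834 CPM in TAC hearts. Of the atrial markers 2 of the 3 tested were higher, Nppa (mean 221 against 3093 CPM) and Myl4 (1.81 against 5.87 CPM, with overlap), and Sln was at 0 in both groups. Nppa, which overloaded ventricular muscle is known to express, made up nearly all of the atrial sum. Counts of mitochondrially encoded features made up 1.77% to 6.44% of sham and 1.35% to 1.95% of TAC libraries. Without those features 6 cytosolic genes were higher, Mars having lost its call (0.18, edgeR adjusted p = 0.0505), and 1 was lower. The part of these cells in the synthetase differences was not tested.

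The comparisons of stage and of TAC share no libraries, so their calls may be set side by side. Of the 6 cytosolic genes higher at E13.5 and the 7 higher in TAC hearts, Vars was in both, which is 16.7% and 14.3% of these lists. Of the 8 lower at E13.5, 3 were higher in TAC hearts (Mars, Nars and Sars, 37.5% of the 8 and 42.9% of the 7). The E13.5 comparison called 44.1% of the whole table higher and 39.7% lower, so sharing of this size is no result about these genes, and the E13.5 call of Sars and the TAC call of Mars were lost in several alternatives. Farsb and Iars2 were lower in both, but the TAC call of Farsb was lost in 6 of 8 fits without a single library and in 5 of 10 other alternatives.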

How the data were processed

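Raw counts per feature were deposited by the authors as 1 table of 27 libraries. Per the submitters' processing notes, reads were mapped to mm9 (NCBIM37) with Bowtie and TopHat 1.3.0 and counted with HTSeq, and DESeq and edgeR are named with no role. The libraries were single-end and not strand-specific per the labels' protocols. The sources used here do not give the counting mode or strand setting, so reads of overlapping genes may be missing or mixed. The annotation deposited by the authors, whose position values are first and last bases of each exon, gave exonic lengths and coordinates.

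The main test was edgeR 4.0.16 (R 4.3.3): TMM scaling, a filter of 10 counts (filterByExpr, minimum total 15), robust quasi-likelihood fits of the compared groups, and Benjamini-Hochberg adjustment over all features. SE is the log2 fold change over the root of F. CPM were scaled over all 27 libraries, so CPM ratios can differ slightly from fitted folds. Pairs used log2(RPKM + 0.1). DESeq2 1.42.0 and limma 3.58.1 served as alternatives, beside other scalings, filters, references, a replicate block and leaving out libraries. The main test was tested on simulated data: in the TAC comparison, false calls exceeded the nominal level with feature-wise dispersions and were near it with trended ones, so TAC calls near the threshold deserve caution.

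Full values are given for called members of mean CPM 2 or more whose groups do not overlap, up to 4 per class and direction, and always for Gars, Kars, Eprs, Farsa and Farsb. Other values of members, Slc7a1, and the plotted Wars2 and Lars2 were chosen after values were seen. Members and gene lists were chosen with earlier results of these data known.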

Additional observations from a re-analysis of the deposited data

Results flagged for a closer look

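Of 185 sets of values (members and sums by group), 16 had 1 library farther from the rest than Dixon's 95% limit allows, and chance gives about 1 in 20. Sham replicate 2 stood above the other sham hearts for Hars (49.4 CPM, others 42.7 to 43.8), Wars (85.3, others 71.7 to 73.9) and Mars2 (13.4, others 9.40 to 10.1). Sham replicate 3 had the highest cytosolic sum (486 RPKM, others 458 to 461) and ratio of the sums (3.44, others 3.13 to 3.17).

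Among TAC hearts, replicate 2 was high for Qars (119 CPM, others 107 to 109) and Yars2 (0.213, on a count of only 2, others 0) and low for Lars2 (58.0, others 63.1 to 63.7). At 16 weeks, replicate 3 was low for Iars (67.6 CPM, others 81.2 to 89.2) and Tars (37.8, others 60.9 to 67.9), and replicate 4 was high for Wars (97.6, others 62.1 to 73.1) and low for Wars2 (12.7, others 15.3 to 16.1).

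At 6 weeks, replicate 6 was low for Eprs (140 CPM, others 155 to 159) and high for Yars2 (0.507, others 0), the latter on a count of only 1. At E13.5, replicate 2 was high for Nars (70.9 CPM, others 53.5 to 59.1) and replicate 3 low for Iars2 (61.8, others 71.6 to 78.2).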

How the results depend on the processing

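The unoperated adult libraries held 2092270 to 2682955 counts each, which limits the precision of low members such as Nars2 there. Same-numbered samples had correlations of -0.163 to 0.15 for stage (1 of 18 pairs over 0.1) and -0.0647 to 0.152 for age (1 of 6). For TAC they ran from -0.0652 to 0.0245 (0 of 4). So few pairs cannot settle whether the replicate numbers pair the samples. TAC replicate F1 is numbered 1 in its label, so here and in the replicate block it shared the number of TAC replicate 1. With the replicate block, 6 and 7 cytosolic and 2 and 6 mitochondrial genes were higher and lower at E13.5, 0 between ages, and 6 and 0 cytosolic and 0 and 1 mitochondrial genes under TAC.

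The count of cytosolic genes lower under TAC was 0 with DESeq2, no filter, all 27 libraries in 1 fit, the replicate block, and without the libraries against their sex label, Farsb alone making up that count. Leaving out 1 library gave 0 to 1 there, 0 without sham replicate 1, 2 or 4 or TAC replicate 1, 3 or F1, and 6 to 9 higher cytosolic genes. At E13.5, no filter gave 4 higher mitochondrial genes, and between the ages all 27 libraries in 1 fit gave 1 lower cytosolic gene, Rars (-0.37, edgeR adjusted p = 0.0473). The other counts stayed within 1.5 times. The ratio of the sums at E13.5 was 5.42 over all exonic bases. Without Lars2 the ratios were 5.58, 3.59, 3.56, 3.71 and 4.12 at E13.5, 6 weeks, 16 weeks, sham and TAC.

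The median log2 fold change of all features at E13.5 moved from 0.07 to 0.189 with upper-quartile scaling and 0.634 with no filter. The following log2 fold changes changed sign, of which Sars and Qars among members were called; the cause was not tested. For E13.5, they were with no filter Aars 0.048, Lars 0.081, Sars 0.034, Tars 0.15, Yars 0.17, Sars2 0.053 and Vars2 0.087, against sham alone Eprs -0.22, Iars -0.091, Qars -0.11, Tars 0.38, Sars2 0.078 and Eef1e1 -0.18, and against 16 weeks alone Iars -0.00057 and Yars 0.0090. With upper-quartile scaling they were Lars 0.020, Tars 0.091, Yars 0.11 and Vars2 0.025, with RLE scaling Tars 0.012 and Yars 0.033, with DESeq2 Tars 0.012 and Yars 0.035, and against 6 weeks alone Tars 0.074. Leaving out 1 library gave Tars -0.079 to 0.015 and Yars -0.032 to 0.026.

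Between ages, they were with limma-voom Cars 0.0022, Iars2 -0.0011 and Pars2 -0.029, and without the libraries against their sex label Gars -0.018, Iars -0.045, Iars2 -0.084, Pars2 -0.017, Sars2 0.15 and Wars2 -0.027. Iars2 and Pars2 stood at -0.013 and -0.0096 with upper-quartile scaling, -0.0036 and -0.00026 with no filter, -0.00032 and -0.0073 with the replicate block, and -0.0048 and -0.0016 without mitochondrially encoded features. Mars2 stood at 0.0018 with a filter of 1 CPM and 0.016 with all 27 libraries in 1 fit. Leaving out 1 library gave Aars -0.040 to 0.068, Cars -0.088 to 0.092, Gars -0.023 to 0.050, Lars -0.030 to 0.080, Wars -0.026 to 0.10, Iars2 -0.039 to 0.039, Mars2 -0.074 to 0.086, Nars2 -0.25 to 0.0060, Pars2 -0.084 to 0.11 and Sars2 -0.16 to 0.026.

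Under TAC no called member changed sign. Uncalled ones were with no filter Eprs 0.018, Lars 0.052 and Fars2 0.050, with all 27 libraries in 1 fit Eprs 0.0040, Lars 0.039 and Fars2 0.036, without the libraries against their sex label Hars -0.025 and Fars2 0.027, with upper-quartile scaling Rars -0.023, and with the replicate block Fars2 0.021. Leaving out 1 library gave Eprs -0.086 to 0.018, Lars -0.040 to 0.085, Rars -0.035 to 0.068, Fars2 -0.060 to 0.062, Mars2 -0.029 to 0.19, Nars2 -0.21 to 0.011 and Pars2 -0.14 to 0.0036.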
